A study of Homo sapiens with 12 samples.

Results

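The genes described here encode matrix proteases and their inhibitors, namely MMP1, MMP2, MMP9, MMP14, TIMP1, TIMP2, TIMP3, PLAU and PLAUR. They were chosen by name, as the rows of the gene counts whose Ensembl identifiers map to these symbols, and 7 of the 9 were found among 20595 genes. MMP1 and TIMP3 were not analysed here. The counts came from A549 cells, labelled p53 wild type, and H1792 cells, labelled p53 mutant, which are both human lung adenocarcinoma lines with MDM2 amplification. Cells of each line received either DMSO, the vehicle, or 1 μM RG7112, an inhibitor of the binding of MDM2 to p53, for 48 h, with 3 replicates in each of the 4 groups and 12 samples in all. The names of the count columns carry a lower dose than the labels do, and the dose of the labels is given here. Each p53 state is represented by a single cell line, so a difference between the lines cannot be told apart from a difference in p53 state. The labels name a common culture medium for both lines while the study's methods name DMEM for A549 and RPMI for H1792, so that medium, too, cannot be told apart from line. Whether the replicates came from separate cultures is not stated, so p-values measure the spread among these samples, which may be technical.

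Matrix metalloproteinases (MMPs) are zinc enzymes that cut collagens, laminins and other proteins of the extracellular matrix. MMP2 and MMP9 are the secreted gelatinases, which degrade denatured collagen and the type IV collagen of basement membranes, MMP1 is an interstitial collagenase, and MMP14 is held in the plasma membrane. Tissue inhibitors of metalloproteinases (TIMPs) bind the active site of these enzymes. TIMP2 also has a part in activation, because MMP14 at the cell surface uses bound TIMP2 to capture proMMP2 and then cleaves it. A parallel route runs through urokinase (PLAU), a serine protease that turns plasminogen into plasmin when bound to its receptor PLAUR. These systems are known for their part in invasion of lung carcinoma cells through basement membrane. The counts measure transcripts and carry no information on secretion, activation or enzyme activity.

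Total counts per sample ranged from 2937657 to 5462657 in A549 with DMSO, 2011916 to 6218825 in A549 with RG7112, 2610822 to 5180412 in H1792 with DMSO and 3680471 to 5055464 in H1792 with RG7112. Levels are given as CPM, counts per 1000000 after normalization. At this depth 3 counts, the limit that a count of 0 allows, corresponded to 0.463 to 1.43 CPM, which covers counting error only. In A549, replicate 3 stood apart in both treatments, where its counts differed from those of replicates 1 and 2 by 15.5 to 23.3 times the expected counting variance (chi-square per degree of freedom), against 5.12 to 5.63 between replicates 1 and 2. Results in A549 for members and for called related genes are therefore also given without it. CDKN1A and MDM2, transcriptional targets of p53, rose in A549 by 3.58 ± 0.70 and 3.00 ± 0.45 (log2 fold change ± SE) with adjusted p = 0.0252 and 0.0102, and were not called in H1792. In A549, CDKN1A lay at 24.1 to 44.9 CPM with DMSO and 189.1 to 939.4 CPM with RG7112, the highest being in replicate 3. Keratin transcripts were present in both lines. The summed level of 7 epithelial markers was 14440 to 24000 CPM in A549 and 1067 to 2181 CPM in H1792, carried by the keratins. The adhesion marker EPCAM held only 1 to 4 counts in A549 with DMSO and 0 to 9 with RG7112. CDH1, another adhesion marker, held 0 to 3 counts in H1792 with DMSO and 0 to 4 with RG7112. The lung lineage factor NKX2-1 was at 0 or 1 count in every sample. Of 6 fibroblast markers, COL1A1 and COL1A2 carried a summed fibroblast level of 1121 to 1429 CPM in H1792 against at most 9.53 CPM in A549, while DCN and LUM were at 3 counts or fewer. The 4 endothelial markers summed to at most 1.90 CPM. The 5 leukocyte markers summed to 34.3 to 121.3 CPM in A549 and 7.48 to 18.7 CPM in H1792, carried by CD68 and CD14, while PTPRC, CD3E and LYZ held at most 1 count in any sample.

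Read counts were compared by edgeR's quasi-likelihood test within each cell line, and a gene was called where the Benjamini-Hochberg adjusted p over all genes tested was under 0.05 and the log2 fold change was over 1 in size. MMP2 was higher after RG7112 in A549, and MMP14 was higher and TIMP1 lower in H1792. MMP9, and MMP14 in A549, had too few counts to be tested. PLAU and PLAUR were not called in either line. In A549, 1 of 5 tested members was called, and it was among the 3.18% of all 10739 tested genes called higher (3.01% were called lower, and 6.19% in either direction). In H1792, 2 of 6 tested members were called, 1 higher and 1 lower, against 10.3% of 9914 genes called higher, 4.34% called lower and 14.6% in either direction. The higher one, MMP14, passed the count filter through its RG7112 samples alone. The median log2 fold change of the tested members was 0.25 in A549 and 0.11 in H1792, beside medians of -0.01 and 0.01 over all tested genes.

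**Figure D1:**
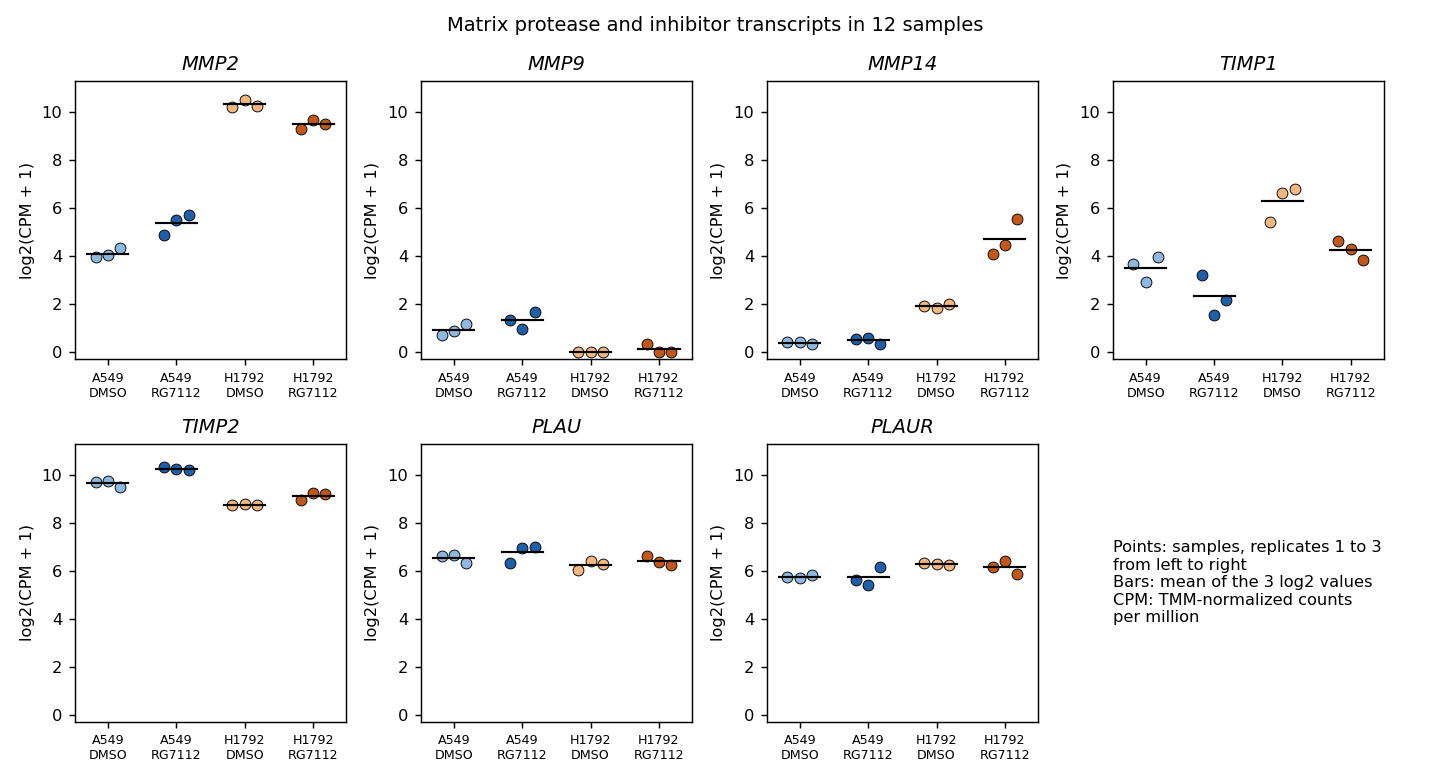
Levels of the 7 members in each sample, as log2(CPM + 1) on the vertical axis, with the 4 groups on the horizontal axis, a point for each replicate and a bar at the mean of 3 samples. MMP2 stands at 1205 to 1460 CPM in H1792 with DMSO and 14.6 to 18.9 CPM in A549 with DMSO, MMP14 is at 15.7 to 46.0 CPM in H1792 with RG7112, and MMP9 is near 0 throughout.

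MMP2 (ENSG00000087245, GRCh38 chr16:55389700-55506691, plus strand) encodes gelatinase A and overlaps MMP2-AS1 on the opposite strand. In A549 its level was 14.6, 15.3 and 18.9 CPM in DMSO replicates 1, 2 and 3, and 28.3, 43.7 and 51.7 CPM in RG7112 replicates 1, 2 and 3. All 3 treated samples lay above all 3 controls, which was so in one direction or the other for 32.4% of the genes tested in A549. MMP2 rose by 1.34 ± 0.28 (log2 fold change ± SE, 95% interval 0.67 to 2.00, adjusted p = 0.0314), from 16.3 ± 2.28 to 41.2 ± 11.9 CPM (mean ± SD, n = 3). This call was close to its threshold. It was lost when any of DMSO replicate 1 (1.26, adjusted p = 0.123), DMSO replicate 2 (1.29, adjusted p = 0.127), DMSO replicate 3 (1.45, adjusted p = 0.0631), RG7112 replicate 2 (1.29, adjusted p = 0.0997) or RG7112 replicate 3 (1.14, adjusted p = 0.0703) was left out, and held only without RG7112 replicate 1 (1.55, adjusted p = 0.0319). Without both libraries of replicate 3 the value was 1.25 with adjusted p = 0.0588.

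In H1792, MMP2 went the other way. Its level was 1205, 1460 and 1241 CPM in the DMSO replicates and 629.8, 819.7 and 733.1 CPM in the RG7112 replicates, again without overlap. The log2 fold change was -0.76 ± 0.11 (95% interval -1.03 to -0.49), and its adjusted p of 0.00519 passed while the size did not reach the fold threshold. With library size as the only scaling it was -0.50, under which the median of all genes moved to 0.27. By adjusted p alone 34.1% of genes passed in H1792 and 8.38% in A549. The difference between the lines was tested as an interaction over all 12 samples, in which a gene was called at an adjusted p under 0.05 with no fold threshold. The response of MMP2 in A549 exceeded that in H1792 by 2.16 ± 0.29 on the log2 scale (95% interval 1.53 to 2.80, adjusted p = 0.000844). Leaving out any one sample, or both A549 libraries of replicate 3, gave values of 1.94 to 2.36 with adjusted p of 0.000185 to 0.00409. Among all 11666 genes in that test, 10.4% were called with a higher response in A549, 11.4% with a lower one and 21.8% in either direction.

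MMP14 (ENSG00000157227, GRCh38 chr14:22836557-22849027, plus strand), the membrane-type metalloproteinase that activates proMMP2, was close to absent in A549, where the DMSO replicates held 1, 2 and 1 counts and the RG7112 replicates 3, 1 and 1. Both groups lie at or under 3 counts, so no fold is given for A549. In H1792 the DMSO replicates held 8, 11 and 7 counts (2.81, 2.53 and 3.05 CPM) and the RG7112 replicates 61, 118 and 198 counts (15.7, 20.9 and 46.0 CPM). Every treated sample was above every control, and the treated samples were spread widely among themselves. MMP14 rose by 3.38 ± 0.49 (log2 fold change ± SE, 95% interval 2.20 to 4.56, adjusted p = 0.00507), a 10.4-fold increase. With so few counts in DMSO, it passed the count filter through the RG7112 samples alone, where it was high. Its adjusted p is therefore a description, and the size rests on low control counts. RG7112 replicate 3 carried part of this size, and without it the rise was 2.78 with adjusted p = 0.0144. Since the response of MMP14 could not be measured in A549, no difference between the lines in its response is drawn.

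MMP9 (ENSG00000100985, GRCh38 chr20:46008908-46016561, plus strand), gelatinase B, was too low to test in either line. The A549 counts were 2, 5 and 5 in DMSO and 10, 2 and 8 in RG7112, which overlap. H1792 held 0 counts in all 3 DMSO samples and in RG7112 replicates 2 and 3, and 1 count in RG7112 replicate 1. A count of 0 in these libraries allows up to 3 counts. SLC12A5-AS1 lies on the opposite strand.

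TIMP1 (ENSG00000102265, GRCh38 chrX:47582313-47586789, plus strand) encodes a secreted inhibitor of most metalloproteinases and lies opposite to SYN1. This overlap is one of gene spans. The counts were estimated on transcripts, so only shared exon sequence could mix these genes, and whether their exons overlap was not examined. Whether counting used strand is not given in the sources used here. In H1792 its level was 41.9, 97.0 and 110.1 CPM in the DMSO replicates and 24.0, 18.6 and 13.2 CPM in the RG7112 replicates. The groups did not overlap, and DMSO replicate 1 was the lowest control. TIMP1 fell by 2.08 on the log2 scale (SE 0.40, 95% interval -3.03 to -1.13, adjusted p = 0.0101), from 83.0 ± 36.2 to 18.6 ± 5.37 CPM. Leaving out any one sample gave values from -2.40 to -1.82, each called. In A549 the DMSO replicates were at 11.5, 6.64 and 14.4 CPM and the RG7112 replicates at 8.34, 1.90 and 3.52 CPM, and RG7112 replicate 1 lay within the range of the controls. The log2 fold change of -1.16 ± 0.57 (95% interval -2.49 to 0.18, adjusted p = 0.272) was not called, and it was -0.67 without both libraries of replicate 3. The difference between the 2 responses was 1.05 (95% interval -0.51 to 2.61, adjusted p = 0.313), so a difference between the lines in the response of TIMP1 was not shown.

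TIMP2 (ENSG00000035862, GRCh38 chr17:78852977-78925387, minus strand), which inhibits MMP2 and takes part in its activation, overlaps CEP295NL on the same strand. In A549 it was at 833.5, 847.1 and 720.5 CPM in the DMSO replicates and at 1270, 1218 and 1187 CPM in the RG7112 replicates. In H1792 it was at 432.9, 439.8 and 422.1 CPM and then at 496.3, 605.1 and 581.2 CPM. In both lines every treated sample was above every control. The log2 fold change was 0.61 ± 0.12 in A549 (95% interval 0.33 to 0.89, adjusted p = 0.0232) and 0.45 ± 0.09 in H1792 (95% interval 0.24 to 0.67, adjusted p = 0.0108), and both passed the adjusted p and missed the fold threshold. In A549 the adjusted p missed its threshold without DMSO replicate 1 (0.0915), DMSO replicate 2 (0.0867), RG7112 replicate 1 (0.0987) or RG7112 replicate 2 (0.0867), with values of 0.59 to 0.65, and with library size as the only scaling (0.0645). It was 0.00656 without both libraries of replicate 3. Their difference of 0.24 had adjusted p = 0.244, and it turned to -0.17 with library size as the only scaling. Treatments did not overlap for MMP2 and TIMP2 in A549, and for MMP2, MMP14, TIMP1 and TIMP2 in H1792, where 53.3% of all tested genes were separated in this way.

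For MMP14 and TIMP1, the pair called in opposite directions in H1792, and for PLAUR, which was not called, the bases just upstream of the RefSeq transcription start are shown (GRCh38.p14, 250 bases each, 5′ to 3′ on the strand of the gene). Of the members, MMP14, TIMP1, TIMP3, PLAU and PLAUR had an entry in the RefSeq promoter table, and MMP1, MMP2, MMP9 and TIMP2 had none. Capitals mark matches, on either strand, to the AP-1 element TGANTCA, its variant TGAGTAA, and the GC box GGGCGG. The MMP14 stretch is chr14:22836335-22836584 (plus strand), that of TIMP1 chrX:47582186-47582435 (plus strand) and that of PLAUR chr19:43670170-43670419 (minus strand).
MMP14: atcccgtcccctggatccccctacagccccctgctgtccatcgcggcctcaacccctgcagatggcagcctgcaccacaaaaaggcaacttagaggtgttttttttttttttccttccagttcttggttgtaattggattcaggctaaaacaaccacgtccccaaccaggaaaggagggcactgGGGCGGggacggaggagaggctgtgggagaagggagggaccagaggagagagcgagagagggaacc
TIMP1: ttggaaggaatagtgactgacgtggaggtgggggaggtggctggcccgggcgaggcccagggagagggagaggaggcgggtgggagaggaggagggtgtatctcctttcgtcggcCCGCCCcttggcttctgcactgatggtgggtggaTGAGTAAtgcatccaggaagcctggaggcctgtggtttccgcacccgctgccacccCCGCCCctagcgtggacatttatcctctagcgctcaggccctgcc
PLAUR: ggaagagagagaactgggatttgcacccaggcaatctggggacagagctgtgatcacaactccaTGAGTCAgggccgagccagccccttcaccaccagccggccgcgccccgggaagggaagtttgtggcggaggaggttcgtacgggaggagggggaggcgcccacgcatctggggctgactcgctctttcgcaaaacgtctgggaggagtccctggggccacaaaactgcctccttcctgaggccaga

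In windows of 300 bases that also take in 50 bases after the start, MMP14 held 1 GC box, TIMP1 held 2 GC boxes and 1 variant AP-1 element, and PLAUR held 1 AP-1 element. The E2F element TTTNGCGC was found in none of these 3 windows. Of 35116 RefSeq promoter windows of that length, 45% held the GC box, 7.71% the AP-1 element, 2.57% its variant and 1.79% the E2F element. The motifs have no overlap with each other in these windows. A match describes letters and is not evidence of binding.

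PLAU (ENSG00000122861, GRCh38 chr10:73909177-73917497, plus strand), urokinase, had 97.2, 99.7 and 80.0 CPM in the A549 DMSO replicates and 80.0, 123.5 and 127.3 CPM with RG7112. In H1792 it had 63.7, 83.2 and 76.2 CPM with DMSO and 97.7, 82.0 and 75.0 CPM with RG7112. The treatments overlapped in both lines. The log2 fold change was 0.25 ± 0.22 in A549 (95% interval -0.25 to 0.76, adjusted p = 0.545) and 0.27 ± 0.14 in H1792 (95% interval -0.07 to 0.60, adjusted p = 0.182). Both intervals exclude a change of 1 on the log2 scale. Without both A549 libraries of replicate 3, the A549 value was 0.031 (adjusted p = 0.947). C10orf55 lies on the opposite strand of PLAU.

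PLAUR (ENSG00000011422, GRCh38 chr19:43646095-43670547, minus strand), the membrane-anchored urokinase receptor, had 52.3, 50.6 and 56.2 CPM in the A549 DMSO replicates and 48.5, 41.3 and 69.9 CPM with RG7112. In H1792 it had 80.2, 77.2 and 74.0 CPM with DMSO and 71.2, 82.7 and 57.6 CPM with RG7112. Treated samples lay on both sides of the controls in each line. The log2 fold change was 0.01 ± 0.23 in A549 (95% interval -0.52 to 0.54, adjusted p = 0.984) and -0.05 ± 0.15 in H1792 (95% interval -0.40 to 0.29, adjusted p = 0.802), and its sign turned with library size as the only scaling in A549 (-0.072) and in H1792 (0.21), and without both A549 libraries of replicate 3 (-0.18). The differences between the lines were 0.06 for PLAU (95% interval -0.54 to 0.66, adjusted p = 0.908) and 0.14 for PLAUR (95% interval -0.46 to 0.74, adjusted p = 0.758), and both turned sign with library size as the only scaling (-0.35 and -0.27).

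**Figure D2:**
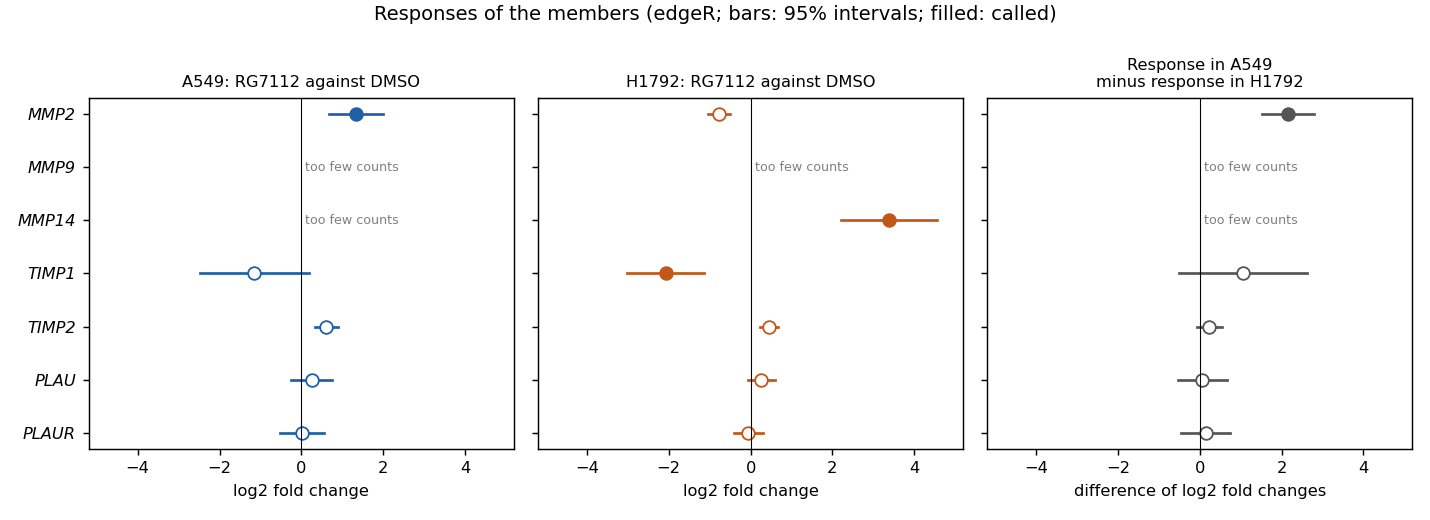
Log2 fold changes of the members after RG7112 in A549 (left) and H1792 (middle), and the difference between these responses (right), with 95% intervals as bars, filled points for called genes and open points for the others. MMP2 lies to the right of 0 in A549 (1.34) and to the left in H1792 (-0.76), MMP14 (3.38) and TIMP1 (-2.08) are the called members in H1792, and PLAU and PLAUR straddle 0. No difference is drawn for MMP9 and MMP14, which had too few counts in at least 1 line.

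Fold changes were related to the GC content of genes over all tested genes, with Spearman's rho of 0.255 in A549 (9941 genes) and -0.472 in H1792 (9165 genes). MMP14 has a GC content of 58.8% and TIMP1 of 58.0%, against a median of 49.4% for the genes tested in H1792. MMP2 has a GC content of 55.8%, above this median and above that of 50.2% in A549. The 2 trends have opposite signs, and the rise of MMP2 in A549 and its difference of 2.16 between the lines are given without correction for GC content. After loess correction for GC content, MMP14 was at 3.82 (adjusted p = 0.00538) and TIMP1 at -1.69 (adjusted p = 0.0181) in H1792, both still called, and MMP2 was at -0.48 (adjusted p = 0.0297). With this correction and the replicate number as a block, TIMP1 was at -1.62 with adjusted p = 0.0735. In the same H1792 samples the summed level of the epithelial markers was 1814 to 2181 CPM with DMSO and 1067 to 1334 CPM with RG7112. Of the 5 epithelial markers tested, KRT18, a keratin of simple epithelia, fell by 1.04 (adjusted p = 0.00437) and no other was called. KRT7 at -0.79 (adjusted p = 0.00658), KRT8 at -0.54 (adjusted p = 0.00894) and KRT19 at -0.59 (adjusted p = 0.0371) also fell. They passed by adjusted p alone, as 34.1% of genes did, and missed the fold threshold. EPCAM, an epithelial adhesion molecule, went the other way, at 1.22 (adjusted p = 0.102). The fibroblast markers summed to 1364 to 1429 CPM with DMSO and 1121 to 1293 CPM with RG7112. Of the 4 fibroblast markers tested, PDGFRB, a receptor kinase of mesenchymal cells, was called higher, with 0 to 4 counts in the DMSO samples and 16 to 27 with RG7112 (adjusted p = 0.022). PDGFRB passed the count filter through the RG7112 samples alone, so this adjusted p is a description. The abundant collagen genes COL1A1 at -0.19 (adjusted p = 0.379) and COL1A2 at -0.15 (adjusted p = 0.182) were not called. PDGFRA, the other marker tested, was at 0.89 (adjusted p = 0.13) and was not called either. DCN and LUM held 3 counts or fewer. The part of these in the responses of the members was not tested.

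Levels were then compared between members within a sample, as CPM per kilobase of exon length. In A549, TIMP2 was first of the 7 in both treatments, followed by PLAU and PLAUR, and it made up 73.7 ± 1.82% of their summed level with DMSO and 79.5 ± 3.61% with RG7112 (mean ± SD, n = 3). In H1792, MMP2 was first and TIMP2 second in both treatments. MMP2 made up 54.9 ± 2.50% of the sum with DMSO and 40.8 ± 1.98% with RG7112, while TIMP2 went from 21.3 ± 2.07% to 36.7 ± 1.45%. The summed level over the 7 members was 266.2 ± 17.0 CPM per kilobase in A549 with DMSO and 378.4 ± 5.44 with RG7112, and it was 501.1 ± 49.6 in H1792 with DMSO and 375.0 ± 32.0 with RG7112.

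The ratio of MMP2 to TIMP2, enzyme to inhibitor, moved in opposite directions in the 2 lines as a description of the same values. In H1792 it was 2.39 to 2.86 in the DMSO samples and 1.08 to 1.17 in the RG7112 samples. In A549 it was 0.0151 to 0.0225 with DMSO and 0.0191 to 0.0375 with RG7112, where the ranges overlapped. MMP2 transcripts thus outnumbered TIMP2 transcripts per length in every H1792 sample and in no A549 sample. The ratio of TIMP2 to TIMP1 was 1.37 to 3.70 in H1792 with DMSO and 7.41 to 15.7 with RG7112. In A549 it was 17.9 to 45.7 with DMSO and 54.5 to 229.3 with RG7112, the latter resting on as few as 4 counts of TIMP1. PLAU over PLAUR lay between 0.650 and 2.45 in all 12 samples.

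**Figure D3:**
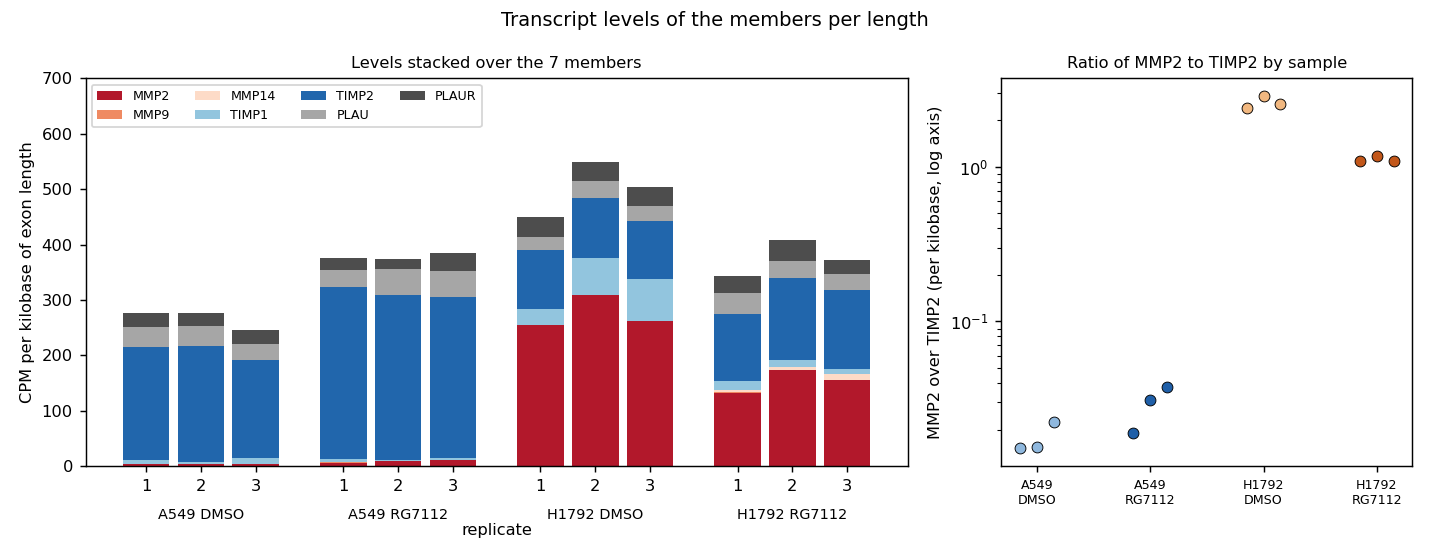
Left, levels of the 7 members stacked in each sample, in CPM per kilobase of exon length, with replicates on the horizontal axis. Right, the ratio of MMP2 to TIMP2 per kilobase in each sample on a log axis. TIMP2 fills most of each A549 bar, MMP2 is the largest block in each H1792 bar, and the ratio stands above 1 in H1792 and at or below 0.0375 in A549.

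Between the cell lines, 2 of 5 tested members were called in the DMSO samples (A549 against H1792, adjusted p under 0.05 and log2 difference over 1 in size), both lower in A549, and 14.8% of 10330 genes were called lower, 20.6% higher and 35.5% in either direction. MMP2 was 6.27 ± 0.14 lower in A549 on the log2 scale (log2 difference -6.27, 95% interval -6.61 to -5.93, adjusted p = 3.93e-06). TIMP1 differed by -2.90 ± 0.45 (adjusted p = 0.00205). TIMP2 at 0.94 ± 0.10 (adjusted p = 0.000433) and PLAUR at -0.49 ± 0.12 (adjusted p = 0.0124) passed by adjusted p alone, as 49.7% of all genes did, and PLAU at 0.36 (95% interval -0.01 to 0.74, adjusted p = 0.0976) did not. MMP14 and MMP9 were left out by the filter on low counts. A fit without that filter gave adjusted p = 0.00896 for MMP14, fitted lower in A549, and 0.0436 for MMP9, fitted higher. These values are descriptions, and no difference between the lines is drawn from them. MMP14 held 1 or 2 counts per A549 sample and 7 to 11 per H1792 sample. MMP9 held 2 to 5 counts in A549 and 0 in H1792, where a count of 0 allows up to 3. The fitted size of either difference depends on the prior count and is not given. Without A549 replicate 3, MMP2 was at -6.38, TIMP1 at -3.18 and TIMP2 at 1.01 (adjusted p = 9.69e-05), so that 3 members were called, and PLAU was at 0.46 (adjusted p = 0.0329). The median over the tested members was -0.49, beside 0.08 over all genes.

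The 4 groups can be put in order for each member. For MMP2 the order was H1792 DMSO, H1792 RG7112, A549 RG7112 and A549 DMSO, from high to low, with no overlap between neighbours. For TIMP2 it was A549 RG7112, A549 DMSO, H1792 RG7112 and H1792 DMSO, also with no overlap. For TIMP1 the 2 H1792 groups stood above A549 in mean, and the ranges of A549 DMSO and H1792 RG7112, and of both A549 groups, overlapped. For PLAU and PLAUR every pair of neighbours overlapped.

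Genes whose levels ran most like those of the called members were taken as the 3 with the highest Pearson r of log2 CPM over the 12 samples among 11666 genes. They were CASP4 (r = 0.995), PDGFA (0.994) and RPS6KL1 (0.994) for MMP2, PI4KB (0.971), CIAPIN1 (0.955) and VARS (0.955) for TIMP1, and ARF4 (0.976), TRPS1 (0.97) and IL7 (0.969) for MMP14. These values are descriptions, since the 12 points share cell line and treatment.

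Other proteases and inhibitors were taken from a list of 70 related genes, of which 56 had a row. MMP12 was not analysed here. Of 11 other secreted MMPs with a row, 1 had enough counts to be tested in A549 (MMP28) and 0 in H1792, and of 5 other membrane-bound MMPs with a row, MMP17 alone was tested in each line. In A549, 3 of 25 tested related genes were called higher and 0 lower (median log2 fold change 0.56), beside 3.18% higher and 3.01% lower over all tested genes. Among these 3, HPN passed the count filter through its RG7112 samples alone. In H1792, 3 of 21 were called higher and 0 lower (median -0.26), beside 10.3% higher and 4.34% lower over all tested genes.

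In A549 the called genes were SERPINE2, LRP1 and HPN. SERPINE2, a serpin that inhibits urokinase, plasmin and thrombin, went from 356.0 ± 51.7 to 961.7 ± 18.3 CPM (log2 fold change 1.43 ± 0.14, adjusted p = 0.00197). LRP1, an endocytic receptor that clears proteases bound to their inhibitors, went from 76.2 ± 31.4 to 616.6 ± 173.0 CPM (3.02 ± 0.34, adjusted p = 0.00319). HPN, a membrane serine protease, held at most 1 count in the DMSO samples and 10 to 25 counts with RG7112. It was thus at least 5.91-fold higher against 3 counts per library (adjusted p = 0.00833). HPN passed the count filter through the RG7112 samples alone, where it was high, so its adjusted p is a description. Its call was lost without DMSO replicate 2 (adjusted p = 0.0635). The calls of LRP1 and SERPINE2 held without each sample in turn, and all 3 held without both libraries of replicate 3.

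In H1792 the called genes were ADAMTS12, ADAM10 and ADAM17. ADAMTS12, a secreted protease that cuts cartilage matrix proteins, went from 12.9 ± 6.53 to 69.9 ± 14.5 CPM (2.51 ± 0.36, adjusted p = 0.00506). ADAM10, a sheddase of membrane proteins such as Notch, went from 25.1 ± 2.61 to 64.3 ± 10.5 CPM (1.43 ± 0.18, adjusted p = 0.00362). ADAM17, which sheds TNF and ligands of the EGF receptor, went from 47.7 ± 10.8 to 97.5 ± 17.4 CPM (1.10 ± 0.21, adjusted p = 0.0102). ADAM10 and ADAM17 have a GC content of 40.5% and 41.6%, below the median of the genes tested. After correction for GC content ADAM10 was at 0.91 (adjusted p = 0.00741) and ADAM17 at 0.63 (adjusted p = 0.0559), neither called, while ADAMTS12 was at 2.47 (adjusted p = 0.00576). The call of ADAM17 was also lost without DMSO replicate 2 (0.99) or RG7112 replicate 3 (0.99) of H1792.

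**Figure D4:**
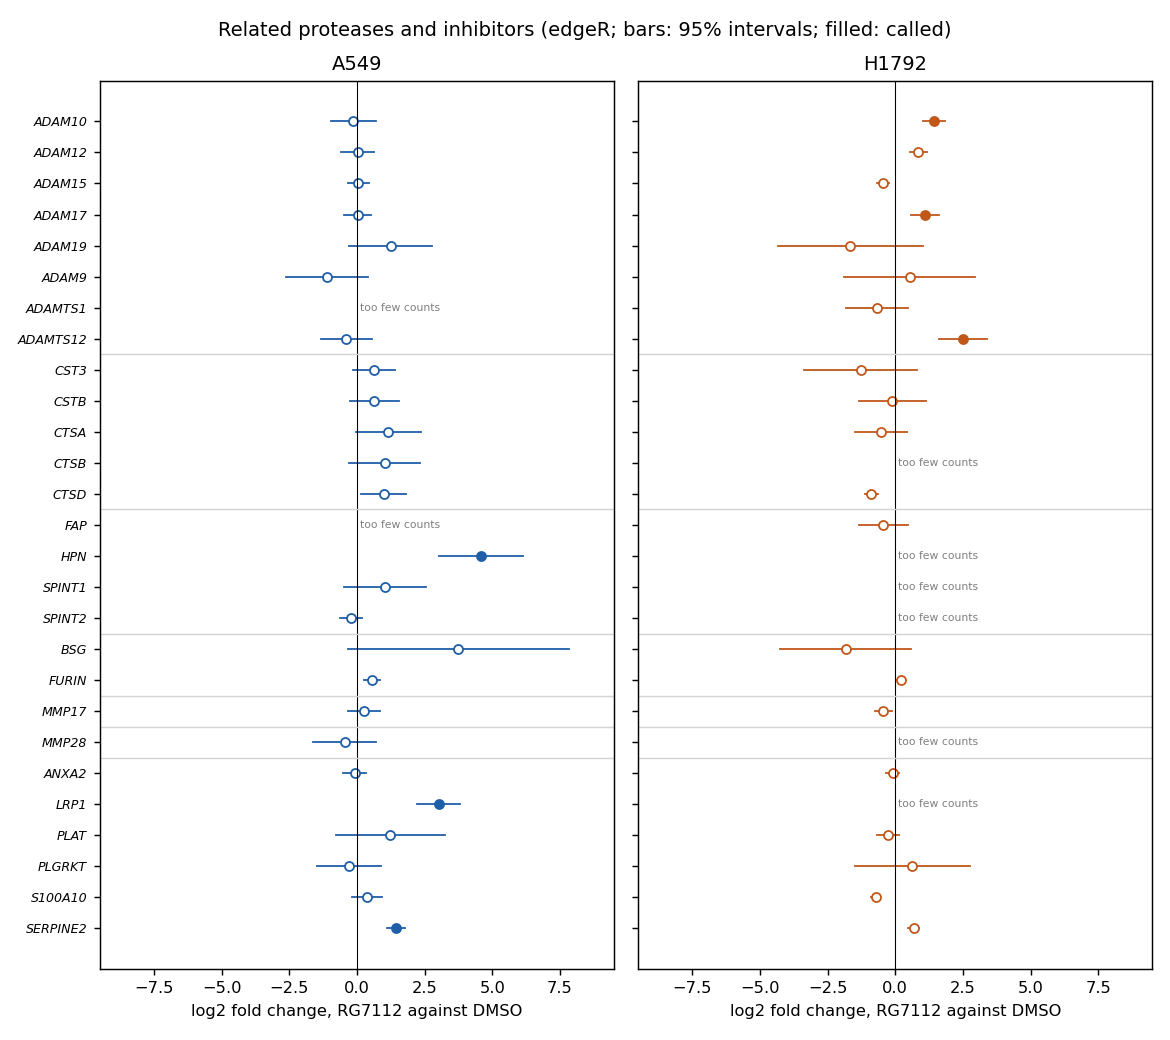
Log2 fold changes after RG7112 of the related proteases and inhibitors that could be tested in at least 1 line, with A549 on the left and H1792 on the right, 95% intervals as bars, filled points for called genes and lines between families. The filled points are SERPINE2, LRP1 and HPN in A549, and ADAM10, ADAM17 and ADAMTS12 in H1792.

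Of 27 related genes in the interaction test, 9 were called, 6 with a higher response in A549 and 3 with a lower one (median difference 0.81, against 0.02 over all genes), beside 10.4% higher and 11.4% lower over all genes tested. LRP1 and SPINT2 entered it through A549 alone, since H1792 held too few of their counts for a test. Of the 19 related genes tested in both lines, 4 were called higher and 3 lower, and of the 9181 genes tested in both lines 12% were called higher and 13.5% lower. CTSD, a lysosomal aspartic protease, had 1.94 ± 0.42 (adjusted p = 0.00978), and 1.01 (adjusted p = 0.0248) after correction for GC content. The difference was 1.16 ± 0.26 (adjusted p = 0.0116) for S100A10, a plasminogen-binding partner of annexin A2. SERPINE2 had 0.82 ± 0.16 (adjusted p = 0.00564), and with library size as the only scaling it had 0.41 (adjusted p = 0.154) and was not called. LRP1 held only 2 to 14 counts per H1792 sample, so its response there was not measured. ADAMTS12 had -2.81 ± 0.55 (adjusted p = 0.00649). FURIN, the proprotein convertase that activates MMP14, had 0.43 ± 0.12 (adjusted p = 0.0313), and its sign turned after correction for GC content (-0.34, adjusted p = 0.261). The call of FURIN was also lost with library size as the only scaling (0.027, adjusted p = 0.937) and when single samples were left out, other than DMSO replicate 2, DMSO replicate 3 or RG7112 replicate 3 of A549 or DMSO replicate 3 of H1792 (0.36 to 0.41, adjusted p = 0.0664 to 0.111). The count fell to 5 under that correction, and to 5 without DMSO replicate 1 of A549 or RG7112 replicate 3 of H1792.

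In the DMSO samples, 11 of 22 related genes tested were called between the lines, 6 higher and 5 lower in A549 (median 0.34), beside 20.6% higher and 14.8% lower over all genes tested. ANXA2 was 1.58 ± 0.17 higher in A549 on the log2 scale (adjusted p = 0.000522) and SERPINE2 1.30 ± 0.14 (adjusted p = 0.000421). SPINT2, an inhibitor of membrane serine proteases, was fitted 7.87 ± 0.31 higher in A549 (adjusted p = 1.28e-05) and LRP1 4.84 ± 0.60 (adjusted p = 0.00084). H1792 with DMSO held only 4 to 8 counts of SPINT2 and 4 to 14 of LRP1. Both passed the count filter through A549 alone, where they are high, so their sizes and adjusted p are descriptions. The same holds for FAP and PLAT, counted among the 5 called lower, which passed through H1792 alone. With DMSO, FAP, a membrane serine protease, held 0 counts in A549 and 17 to 39 in H1792. PLAT, tissue plasminogen activator, held 5 to 139 counts in A549 and 638 to 1476 in H1792. ADAM15 at -1.80 ± 0.10 (adjusted p = 3.29e-05) and ADAM12 at -1.88 ± 0.17 (adjusted p = 0.000203), both membrane proteases of the ADAM family, were lower in A549.

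PEG10, a gene derived from a retrotransposon that the study examined together with the metalloproteinases, was at 91.2 to 218.0 CPM in A549 with DMSO and 18.5 to 37.5 CPM with RG7112, and at 27.9 to 50.6 CPM in H1792 with DMSO and 82.2 to 124.1 CPM with RG7112. It fell by 2.66 in A549 (SE 0.41, adjusted p = 0.011) and rose by 1.52 ± 0.25 in H1792 (adjusted p = 0.00707), with a difference of -4.10 ± 0.53 (adjusted p = 0.000722).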

How the data were processed

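RNA from A549 and H1792 cells was sequenced in 12 libraries, and samples were grouped by cell line and treatment from their labels. The authors estimated transcript abundances with kallisto 0.45.0 on GRCh38 (per the labels' processing notes) and deposited gene-level estimated counts (expected counts), given as integers and not scaled to library size. The labels and the study's methods differ on sequencer, read length and A549 medium. All 12 columns were used. Symbols, positions, exon lengths and GC content came from GENCODE v29, which held 17982 of the 20595 identifiers.

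Software was edgeR 4.0.16, DESeq2 1.42.0 and limma 3.58.1 under R 4.3.3. Low genes were removed by filterByExpr (at least 10 counts, and 15 in total), normalized by TMM within each comparison, and fitted by robust quasi-likelihood with Benjamini-Hochberg adjustment over all genes tested. CPM levels used TMM over all 12 samples, and SDs are over 3 replicates. Where a group held 3 counts or fewer in every sample, a fold was a lower bound against 3 counts. Common biological coefficients of variation were 0.345 in A549, 0.27 in H1792, 0.33 for the difference between responses and 0.303 between lines. The procedure was tested on simulated counts that had less spread than these data. Only genes with ample counts were changed in them, so the simulation does not cover members with few counts.

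Named were all members, the called related genes with the 6 smallest p in each comparison, MMP12, PEG10, and the 3 genes most like each called member. KRT7, KRT8, KRT18, KRT19, EPCAM, PDGFRA, PDGFRB, COL1A1, COL1A2, BSG, CTSB, CST3, PLAT and genes named beside a count were chosen after their values were seen. The members and lists were chosen with earlier results of these data known. Alternatives were DESeq2, RLE or library size scaling, other count filters, limma-trend, a replicate block, GC correction (loess, span 0.5), both together, other fold thresholds, all samples in a single fit, and leaving samples out. Counts of related genes under these settings were added after seeing the data, as was the count of differences among genes tested in both lines.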

Additional observations from a re-analysis of the deposited data

Results flagged for a closer look

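The interaction test between the 2 cell lines (adjusted p under 0.05) called 1 member, PEG10 and 7 related genes among the genes that could be tested in both lines. These were 1 of 5 members (20%) and 7 of 19 related genes (36.8%), beside 25.5% of all 9181 genes tested in both lines. As the log2 response in A549 minus that in H1792, MMP2 had 2.163 and PEG10 had -4.101. Values above 0 were found for CTSD (1.94), S100A10 (1.161), SERPINE2 (0.8182) and FURIN (0.4325), and values below 0 for ADAMTS12 (-2.813), ADAM10 (-1.486) and ADAM17 (-0.9986). CTSD was at 1.01 after correction for GC content (adjusted p = 0.0248), and SERPINE2 was not called with library size as the only scaling (0.41, adjusted p = 0.154), nor FURIN (0.027, adjusted p = 0.937). ADAM10 was at -0.75 (adjusted p = 0.132) and ADAM17 at -0.32 (adjusted p = 0.425) after correction for GC content, and neither was then called. The same test also called MMP14 (fitted value -2.917), LRP1 (4.566) and SPINT2 (2.027), which had too few counts to be tested in one of the lines. MMP14 had 1 to 3 counts in each A549 sample, and H1792 samples had 2 to 14 counts of LRP1 and 0 to 8 of SPINT2. These fitted values depend on the prior count, and a difference between the lines is not drawn from them. The call of SPINT2 was also lost with library size as the only scaling (adjusted p = 0.0832), without a filter (0.0645), with limma-trend (0.0519), with the replicate block (0.0983), with GC correction (0.151), and when single samples were left out, other than DMSO replicate 3 of A549 or DMSO replicate 2 of H1792 (0.0621 to 0.134).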

How the results depend on the processing

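The values of called members kept their direction in every alternative run. Without a fold threshold, 2 of 5 tested members were called in A549, 4 of 6 in H1792 and 4 of 5 between the lines in DMSO. By adjusted p alone, 8.38%, 34.1% and 49.7% of all tested genes passed in these comparisons. Leaving out samples gave 0 to 1 members in A549 and 1 to 2 for the difference between responses, and 2 in H1792 each time. With at least 10 counts in every sample, 1 member was called in H1792 and 1 for the difference between responses, since MMP14 was then not tested. In the test of that difference MMP14 passed the count filter through H1792 alone. DESeq2 and the fit without a filter each gave 1 member (MMP2) for the difference between responses, with MMP14 at adjusted p = 0.0775 and 0.0554. The fit without a filter gave 4 between the lines, among them MMP14 and MMP9, which the filter had left out as too low.

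Under the replicate block the calls were 1 member in A549, 2 in H1792 and 1 for the difference between responses, where MMP14 was at -2.75 with adjusted p = 0.0633. With the block and GC correction together, 1 member (MMP14) was called in H1792. Deviations of same-numbered samples correlated at 0.145, 0.0668 and 0.293 in A549 and at -0.0386, -0.0182 and -0.000216 in H1792. The numbers were not taken as pairs in the main fits. Replicate 3 of A549 correlated at -0.232 to -0.14 with the other numbers, against 0.293 with its own, and the main A549 fit takes no account of this. In A549, 2 of 3 numbers and in H1792 0 of 3 had their highest correlation with their own number.

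Among the members, only uncalled values turned sign in the alternatives run. PLAUR in A549 was at -0.072 with library size alone, -0.0034 without a filter, -0.0066 with at least 10 counts, -0.027 with limma-trend, -0.023 with the block, -0.16 with block and GC correction and -0.15 with GC correction, and ranged from -0.23 to 0.16 when samples were left out. PLAUR in H1792 was at 0.21, 0.014, 0.22 and 0.23 with library size alone, at least 10 counts, block and GC correction, and GC correction, and ranged from -0.19 to 0.067. Of the differences between responses, library size alone gave TIMP2 -0.17, PLAU -0.35 and PLAUR -0.27. PLAU was at -0.028 without a filter, -0.049 with at least 10 counts, -0.22 with block and GC correction and -0.21 with GC correction (-0.16 to 0.21 without samples), and PLAUR at -0.28 and -0.27 with those 2 corrections (-0.11 to 0.25). Library size alone moved the median of all genes to 0.269 in H1792, -0.372 for the difference and 0.292 between lines. The causes were not tested. Depth limits MMP9 in both lines and MMP14 in A549.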

Other observations

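Some related genes had 1 sample far from the other samples of its group. BSG, a glycoprotein that induces metalloproteinases, held 26, 4 and 1408 counts in replicates 1, 2 and 3 of A549 with RG7112 and 17, 425 and 21 counts in those of H1792 with DMSO. In the same H1792 group CTSB, a lysosomal cysteine protease, held 0, 151 and 0 counts, and CST3, an inhibitor of such proteases, held 22, 328 and 18 counts. PLAT, tissue plasminogen activator, held 5, 139 and 13 counts in A549 with DMSO. The responses of BSG, CST3 and PLAT to RG7112 were not called in either line. Between the lines in DMSO, PLAT was called lower in A549 (log2 difference -4.72, adjusted p = 0.0032), with its outlying sample included. CTSB was not called in A549 and had too few samples with counts to be tested in H1792.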
